A study of Rattus norvegicus with 8 samples.

Results

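The difference between the young adult and the mature thyroid of sham-irradiated male Wistar rats was examined by RNA sequencing of whole thyroid tissue. The samples were those of the 2 sham groups, 4 of the 8 samples sequenced, chosen by their labels and not by their values. The 1w0Gy group (2 samples) had been sham-irradiated at 1 week of age and the 4m0Gy group (2 samples) at 4 months of age, and the glands of both were taken 8 weeks later, so that the 1w0Gy rats were young adults and the 4m0Gy rats mature adults. Neither group received any dose (0 Gy), and no allele or agent set the groups apart. The other 4 samples came from rats given 4 Gy of cervical X-rays at the same ages (1w4Gy and 4m4Gy, 2 samples each) and were used here for the spread between samples and as a second age comparison that shares no sample with the first.

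The groups differed in more than age. The 1w0Gy rats were male pups born in the laboratory to purchased dams, whereas the 4m0Gy rats were purchased, and the 2 samples of each group were the ones with the better RNA integrity among 7 rats. Each sample was 1 rat. The litters of the pups and the time of day at which the glands were taken are not given in the sources used here, so age, origin and hour of sampling cannot be told apart in any value below. In whole tissue, fewer cells of a type and less RNA per cell of that type cannot be told apart either.

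The thyroid is built of follicles whose epithelial cells make thyroglobulin, iodinate it and release thyroid hormone under the control of thyroid-stimulating hormone. Between the follicles lies a stroma of fibroblasts, capillaries, macrophages and mast cells, embedded in fibrillar collagen and elastic fibres, and calcitonin-producing C cells are scattered among the follicles. A gland that is still growing adds follicles and matrix, while an adult gland turns over slowly.

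Counts on the transcript with the highest summed count of each gene ranged from 15590601 to 18138102 in the 4 sham samples. Thyroglobulin (Tg) alone took 18.7% to 21.3% of them, and the other defining genes of follicular cells were present in every sham sample, among them Pax8 and Nkx2-1. The glands also carried C cell and parathyroid RNA: Calca, which encodes calcitonin, was at 3181 and 1993 CPM in the 1w0Gy samples and 4108 and 5265 CPM in the 4m0Gy samples, and Pth, which encodes parathyroid hormone, at 4651 and 3198 CPM in the 1w0Gy samples and 5306 and 3814 CPM in the 4m0Gy samples. CPM values are counts on a gene's chosen transcript normalised to the summed counts of the genes tested in that sample. Library sizes were scaled by the trimmed mean of M values. Replicates varied beyond counting error. Chi-square divided by its degrees of freedom was 8.75 between the 1w0Gy samples (15262 genes) and 8.45 between the 4m0Gy samples (15137 genes). The genes were those tested that reached a minimum summed count in the 2 samples of the group.

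In all, 15684 genes were tested, 1 transcript each, with edgeR's quasi-likelihood test over the 8 samples, and a gene was called when its p, adjusted by the Benjamini-Hochberg method over all of them, was under 0.05. The mature gland had 57 genes called higher (0.363% of those tested) and 79 called lower (0.504%), 136 in all (0.867%). The change was at least 2-fold for 17 of the genes that rose and for 38 of those that fell. The median log2 fold change was 0.81 among the first, −0.99 among the second and 0.00039 over all genes tested. In all 136 called genes the 1w0Gy and 4m0Gy samples did not overlap, which was also so for 50% of the genes tested (7841 genes). Without adjustment, 2477 genes had a p under 0.05. The genes called higher had a median transcript length of 4267 bases and those called lower 3040 bases, against 2671 bases for all genes tested, and with each sample's trend with length removed 41 genes were called higher and 74 lower.

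**Figure D1:**
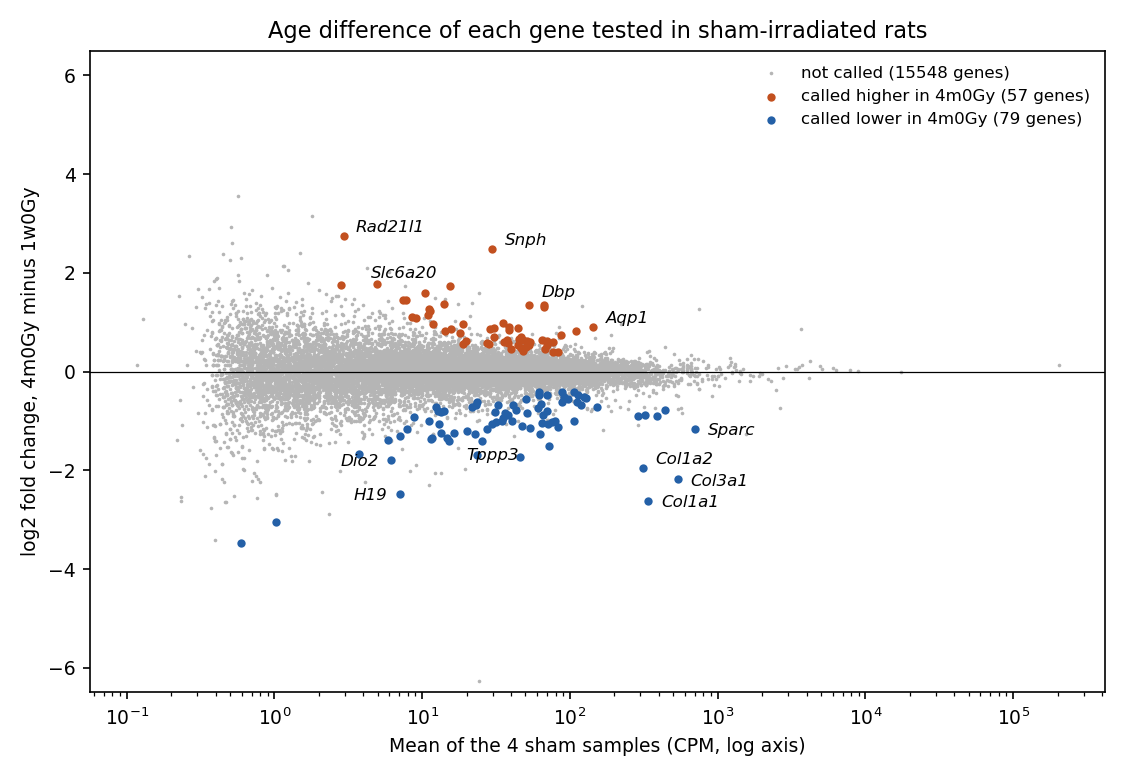
Each point is 1 of the 15684 genes tested. The horizontal axis gives the mean of the 4 sham samples in CPM on a log axis, the vertical axis the log2 fold change from 1w0Gy to 4m0Gy, and colour marks the 57 genes called higher and the 79 called lower. Col1a1, Col3a1 and Col1a2 stand below the other genes of like level, with log2 fold changes of −2.62, −2.18 and −1.96.

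With 2 samples a group, the number of calls rested on each sample. It was 6 higher and 6 lower without 4m0Gy replicate 1, 27 and 83 without 4m0Gy replicate 2, 2 and 6 without 1w0Gy replicate 1, and 12 and 21 without 1w0Gy replicate 2. Col1a1, Col1a2, Col3a1, H19, Tppp3 and Dbp were called in all 4 of these fits and in all the other alternatives run.

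The gene list with the most calls was that of the extracellular matrix. Of 50 genes for collagens, other matrix proteins and their processing enzymes, all tested, 21 fell and 0 rose, against 0.504% and 0.363% of all genes tested. The gene lists were written with earlier results of these data known, so these shares are a description and not a test. The log2 fold change was below 0 for 47 of the 50, with a median of −0.83. Their summed level was 6777 to 7537 CPM in the 1w0Gy samples and 3196 to 3948 CPM in the 4m0Gy samples. The number called lower was 3 without 4m0Gy replicate 1, 18 without 4m0Gy replicate 2, 4 without 1w0Gy replicate 1 and 9 without 1w0Gy replicate 2, while the median stayed between −1.02 and −0.68.

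The chains of type I and type III collagen had the lowest log2 fold changes of the list. Col1a1, the α1 chain of type I collagen, was at 657 and 514 CPM in the 1w0Gy samples and 79.3 and 110.4 CPM in the 4m0Gy samples, a 6.16-fold difference (log2 fold change −2.62 ± 0.19 SE, adjusted p = 0.00175). Col1a2, the other chain of the same triple helix, was at 545 and 451 CPM in the 1w0Gy samples and 107 and 149.7 CPM in the 4m0Gy samples and was 3.88-fold lower (adjusted p = 0.00302). Col3a1, the chain of type III collagen of reticular fibres, was at 960.3 and 799 CPM in the 1w0Gy samples and 157 and 230.4 CPM in the 4m0Gy samples and was 4.54-fold lower (adjusted p = 0.00393). In all of them both young samples stood far above both mature ones, and the gap between groups was several times the gap within a group. With 1 of the 4 sham samples left out, the log2 fold change of Col1a1 ran over −2.88 to −2.40, that of Col1a2 over −2.21 to −1.73 and that of Col3a1 over −2.48 to −1.93. The minor fibrillar chains Col5a1 and Col5a2, which nucleate type I fibrils, fell with log2 fold changes of −1.07 and −1.01, and the microfibrillar chains Col6a2 and Col6a3 with −0.68 and −1.004. These members were named after their values were seen, as were the others of this list below except Sparc, Serpinh1, Loxl2 and Postn. Col3a1 and Col5a2 are neighbours on chromosome 9 with no protein-coding gene between them in RefSeq.

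Among genes of the list whose products fold, trim or cross-link collagen, Serpinh1, Loxl2, Adamts2 and Pcolce fell, whereas Lox, Loxl1, P4ha1, P4ha3, Plod2 and Bmp1 were not called, at log2 fold changes from −1.07 to 0.19. Serpinh1, the collagen-specific chaperone HSP47 of the endoplasmic reticulum, was at 466 and 547 CPM in the 1w0Gy samples and 272 and 266 CPM in the 4m0Gy samples (log2 fold change −0.91, adjusted p = 0.0106). Loxl2, a lysyl oxidase that cross-links fibrils, was at 38.1 and 37.6 CPM in the 1w0Gy samples and 14.3 and 19.5 CPM in the 4m0Gy samples (log2 fold change −1.16, adjusted p = 0.0115). Adamts2 and Pcolce, which remove the amino-terminal propeptide and promote removal of the carboxy-terminal one, fell with log2 fold changes of −1.005 and −1.11. The adjusted p of Serpinh1 was 0.0934 without 4m0Gy replicate 1 and 0.0593 without 1w0Gy replicate 2, and that of Loxl2 0.0639, 0.104 and 0.0593 without 4m0Gy replicate 1, 1w0Gy replicate 1 and 1w0Gy replicate 2, with the direction kept.

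Sparc, the secreted collagen-binding glycoprotein osteonectin, was the most abundant gene of the list in CPM, at 1021 and 927 CPM in the 1w0Gy samples and 396 and 476 CPM in the 4m0Gy samples, and was 2.23-fold lower (adjusted p = 0.0104). Postn, or periostin, a matricellular protein of growing and remodelling connective tissue, was at 41.5 and 30.3 CPM in the 1w0Gy samples and 11.5 and 10.7 CPM in the 4m0Gy samples and was 3.24-fold lower (adjusted p = 0.0127). Both young samples were above both mature samples for each. Without 4m0Gy replicate 1 the adjusted p was 0.0817 for Sparc and 0.106 for Postn, and without 1w0Gy replicate 1 it was 0.0808 and 0.104. That of Postn was also 0.0558 without 4m0Gy replicate 2. Elastic fibre genes fell as well: Eln, which encodes tropoelastin, went from 108 ± 7.21 CPM (SD, n = 2) to 37.9 ± 11.7 CPM, with a log2 fold change of −1.50. Its microfibril partners Fbn1, Mfap2, Mfap4 and Mfap5 had log2 fold changes of −1.15, −1.39, −0.87 and −1.36.

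Basement membrane genes moved less evenly. Nid1 and Nid2, the nidogens that link laminin to type IV collagen, fell with log2 fold changes of −1.07 and −0.88, the second being outside the list. Col4a1 and Col4a2, the main type IV chains, were not called, at log2 fold changes of −0.49 (adjusted p = 0.109) and −0.28 (adjusted p = 0.217) by edgeR. Col4a3, a type IV chain of a restricted set of epithelial basement membranes and not in the list, was called higher, at 22.9 and 23.8 CPM in the 1w0Gy samples and 40 and 36 CPM in the 4m0Gy samples. Among the 79 genes that fell, other matrix-related genes outside the list were Mmp2, a gelatinase, at 95.9 and 78.9 CPM at 1w0Gy against 37.9 and 47.1 CPM at 4m0Gy, and Tgfbi, Cilp, Aspn, Npnt, Adamts12, Olfml3 and Fstl1, all secreted proteins, with log2 fold changes from −0.51 to −1.25.

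**Figure D2:**
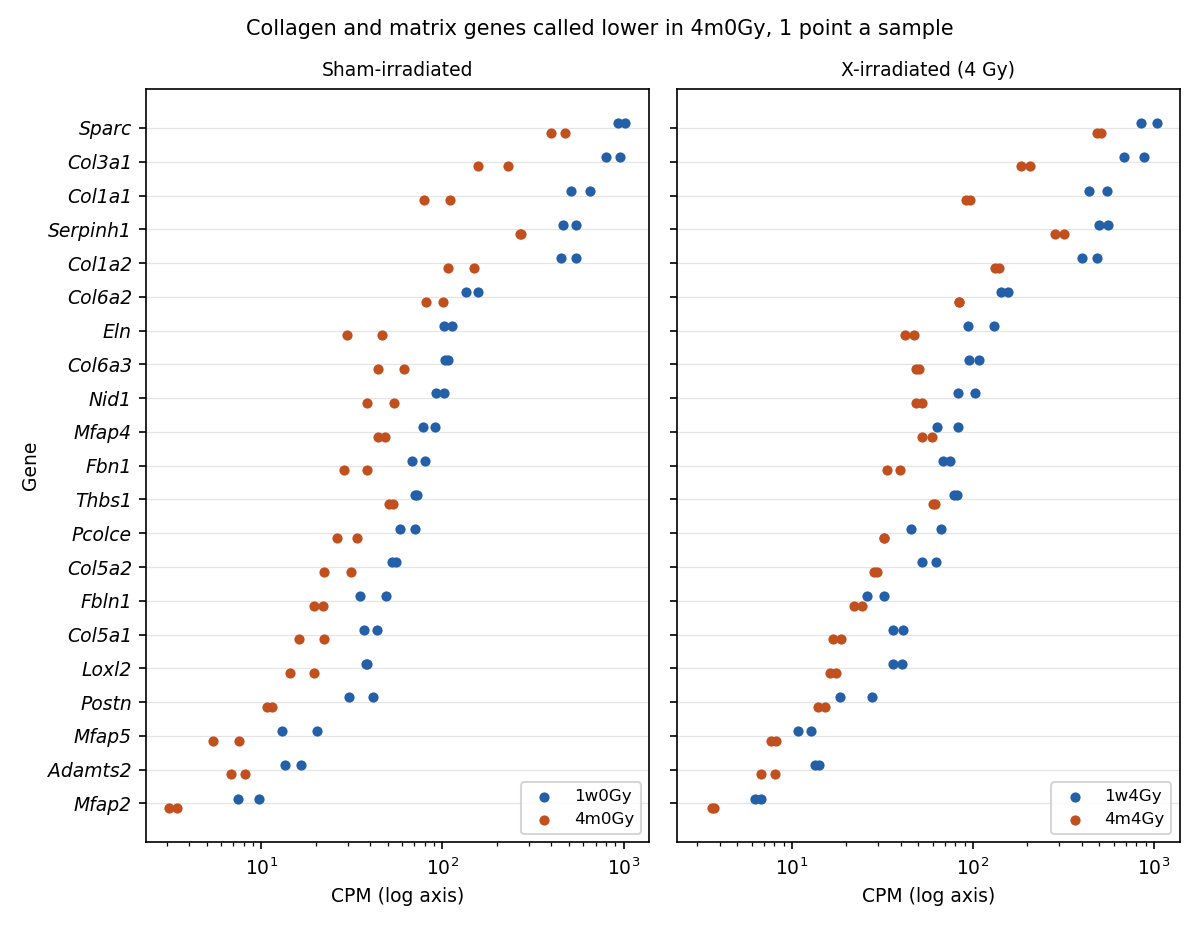
CPM on a log axis of the 21 collagen and matrix genes called lower in 4m0Gy, 1 point a sample, with the sham-irradiated groups on the left and the X-irradiated groups on the right. In the sham groups the 2 young samples (blue) lie above the 2 mature samples (orange) for each of the 21 genes. These genes were picked as called. The sham groups did not overlap for any of the 136 called genes, nor for 50% of all genes tested.

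Marker lists of stromal cells also had medians below 0, against 0.00039 over all genes tested, with few members called. Among 16 fibroblast markers tested 3 fell and 0 rose, against 0.504% and 0.363% of all genes tested, and 13 were below 0. Their median log2 fold change was −0.64, which was −0.38 without 4m0Gy replicate 1 and −0.89 without 4m0Gy replicate 2. The 3 were Clec3b (tetranectin), at 52.4 and 40.3 CPM at 1w0Gy against 23.7 and 22.8 CPM at 4m0Gy, Ccdc80, at 160.5 and 124 CPM at 1w0Gy against 67.5 and 74.7 CPM at 4m0Gy, and Dpt (dermatopontin), at 192 and 189 CPM at 1w0Gy against 105 and 125 CPM at 4m0Gy. None of these 3 was called without 4m0Gy replicate 1 or without 1w0Gy replicate 1, and 2 and 3 fibroblast markers were called lower without 4m0Gy replicate 2 and without 1w0Gy replicate 2. The summed level of the fibroblast list was 1647 to 1928 CPM at 1w0Gy and 1086 to 1383 CPM at 4m0Gy, and the part of a change in fibroblast number in the matrix values was not tested.

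Markers of adipocytes, which lie in the fat around the gland and in its capsule, were below 0 for 17 of 17 genes tested, with a median of −0.66. Only Lpl, the lipoprotein lipase, was called, at 114 and 112 CPM in the 1w0Gy samples and 41.2 and 63 CPM in the 4m0Gy samples. Thus 1 of 17 fell and 0 rose, against 0.504% and 0.363% of all genes tested. The median of this list ranged from −0.98 to −0.38 with 1 sham sample left out, and the number called lower was 8 without 4m0Gy replicate 2 and 0 without each of the others. Adipoq, the fat cell hormone adiponectin, was at 116 and 74.8 CPM in the 1w0Gy samples and 37.1 and 58.7 CPM in the 4m0Gy samples and was not called (adjusted p = 0.119 by edgeR). Pnpla3, a lipid droplet enzyme outside the list, fell from 80.1 and 61.2 CPM to 14.3 and 28.1 CPM. Its log2 fold change was −1.73 (adjusted p = 0.0262) and its adjusted p 0.0867, 0.17 and 0.0593 without 4m0Gy replicate 1, 1w0Gy replicate 1 and 1w0Gy replicate 2.

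MHC class II genes present peptides to helper T cells on dendritic cells, macrophages and B cells. Of 11 members tested, 4 fell and 0 rose, against 0.504% and 0.363% of all genes tested, with 10 of 11 below 0 and a median of −0.57. RT1-Bb, the class II β chain of the B locus, was at 68.4 and 62.1 CPM in the 1w0Gy samples and 33.5 and 39.7 CPM in the 4m0Gy samples (log2 fold change −0.83, adjusted p = 0.0107). RT1-Db1, RT1-Ba and RT1-Da had log2 fold changes of −0.83, −0.78 and −0.66. Class II genes are alike in sequence and lie side by side, RT1-Db1 next to RT1-Ba and RT1-Ba next to RT1-Bb, so that how reads were shared among them is uncertain. Cd74, the invariant chain that escorts class II molecules, was at 334 and 283 CPM in the 1w0Gy samples and 155 and 212 CPM in the 4m0Gy samples and just missed the threshold (adjusted p = 0.0504 by edgeR). No class II gene was called without 4m0Gy replicate 1 or without 1w0Gy replicate 1, 5 were called lower without 4m0Gy replicate 2 and 1 without 1w0Gy replicate 2.

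Macrophage markers were below 0 for 19 of 19 genes tested, with a median of −0.60 (−0.86 to −0.39 with 1 sham sample left out), and 0 were called in either direction by edgeR, with 13 at an unadjusted p under 0.05 and 4 called lower by DESeq2's Wald test. Their summed level was 463 to 539 CPM at 1w0Gy and 317 to 415 CPM at 4m0Gy, without overlap. Of 10 mast cell markers tested, 2 fell and 0 rose, against 0.504% and 0.363% of all genes tested, with a median of −0.72. These were Mcpt1l1, a mast cell protease, at 51.6 and 41.8 CPM at 1w0Gy against 21.3 and 27.3 CPM at 4m0Gy, and Cpa3, the mast cell carboxypeptidase, at 18.6 and 16.6 CPM at 1w0Gy against 7.37 and 9.33 CPM at 4m0Gy. Mcpt1l1 has close paralogs, so its reads are uncertain, and the number of mast cell markers called was 1 without 4m0Gy replicate 2 and 0 without each of the other sham samples. The lists for B cells and for T cells and thymus had 0 called members each by edgeR's test, of 7 and 8 tested, and 0 and 1 members with an unadjusted p under 0.05.

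Of 6 red blood cell genes tested, 1 fell and 0 rose, against 0.504% and 0.363% of all genes tested. Above 0 lay 3 and below it 3, and the median was −0.24. The gene that fell was Hba-a2, a hemoglobin α chain with near-identical copies, at 536 and 567 CPM in the 1w0Gy samples and 291 and 354 CPM in the 4m0Gy samples (log2 fold change −0.77, adjusted p = 0.0277). Its adjusted p was 0.165, 0.149 and 0.142 without 4m0Gy replicate 1, 1w0Gy replicate 1 and 1w0Gy replicate 2. DESeq2 called 1 of these genes higher and 1 lower, no filter on low counts 1 and 2, and the median turned to 0.28 over the 5 genes with at least 10 counts in every sample and to 0.66 with the longest transcript of each gene (4 genes). Endothelial markers had a median log2 fold change of −0.11, from −0.22 without 4m0Gy replicate 2 to 0.11 without 4m0Gy replicate 1, and summed to 1640.0 to 1681 CPM at 1w0Gy and 1426 to 1712 CPM at 4m0Gy, with overlap, and 0 of 17 were called by edgeR (3 at an unadjusted p under 0.05).

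Genes of growth were considered next. H19, an imprinted RNA transcribed from the maternal allele beside Igf2 and abundant in fetal and newborn tissue, was at 11.8 and 12.2 CPM in the 1w0Gy samples and 2.39 and 1.94 CPM in the 4m0Gy samples. It was 5.54-fold lower in the mature gland (log2 fold change −2.47 ± 0.18 SE, adjusted p = 0.00175), and with 1 sham sample left out its log2 fold change was −2.62 to −2.31. H19 contains the hairpin of miR-675. The counts given to Mir675 itself were low, at 2.05 and 1.62 CPM in the 1w0Gy samples and 0.258 and 0.176 CPM in the 4m0Gy samples, or 3 to 38 counts a sample, and were called lower too. Mir675 lies within H19 in RefSeq, so these reads cannot be told apart from those of H19, and a library of long RNA does not measure the mature miRNA. The mature sequences are shown to identify what this hairpin encodes, from RefSeq (GRCr8, both on the minus strand of chromosome 1), with the seed (bases 2 to 8) in capitals:
rno-miR-675-5p: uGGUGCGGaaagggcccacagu
rno-miR-675-3p: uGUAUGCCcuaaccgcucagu
The 2 arms have different seeds.

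Of 18 juvenile growth and imprinted genes tested, H19 was the 1 called, against 0.504% of all genes tested called lower. Above 0 lay 8 and below it 10, and the median was −0.06 (−0.14 to 0.10 with 1 sham sample left out). Igf2, the fetal growth factor next to H19, was at 14.9 and 14.9 CPM in the 1w0Gy samples and 12.2 and 20.9 CPM in the 4m0Gy samples, so that the groups overlapped. Grb10, an imprinted adaptor that dampens insulin and IGF receptor signalling, was at 28.1 and 25.2 CPM in the 1w0Gy samples and 12.9 and 17.8 CPM in the 4m0Gy samples and missed the threshold (adjusted p = 0.0565 by edgeR). Gpc3, a cell surface proteoglycan that restrains growth, was at 14.3 and 12.5 CPM in the 1w0Gy samples and 4.59 and 8.04 CPM in the 4m0Gy samples (adjusted p = 0.112). Dlk1 was near the lower limit in every sham sample, at 0.176 to 1.1 CPM.

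Igf1, the growth factor made under growth hormone, was at 103 and 75.8 CPM in the 1w0Gy samples and 34.7 and 39.1 CPM in the 4m0Gy samples and was 2.42-fold lower (adjusted p = 0.0122). It was the 1 called gene of 31 for IGF and growth factor signalling, against 0.504% of all genes tested called lower. The median of that list was −0.15 (−0.23 to −0.06 with 1 sham sample left out). Ghr, the growth hormone receptor, was at 35.8 and 31.9 CPM in the 1w0Gy samples and 21.5 and 23.1 CPM in the 4m0Gy samples and was not called (adjusted p = 0.0979 by edgeR). Without 4m0Gy replicate 1 or 1w0Gy replicate 1 the adjusted p of Igf1 was 0.115 and 0.0808. Of 58 cell cycle genes tested, 46 were below 0 with a median of −0.34, and 0 were called by edgeR or by DESeq2, with 10 at an unadjusted p under 0.05. Mki67, the proliferation antigen, was at 5.77 and 5.85 CPM in the 1w0Gy samples and 3.62 and 3.64 CPM in the 4m0Gy samples. Its log2 fold change was −0.68 (adjusted p = 0.192 by edgeR), and it was named after its values were seen.

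The list with the next most calls was that of the molecular clock. In most cells Bmal1 (named Arntl in the count table) and Clock drive the genes of their own repressors and of output factors through E-boxes, and the nuclear receptors Nr1d1 and Nr1d2 repress Bmal1 in turn, so that Bmal1 peaks at the opposite time of day to Nr1d1 and Dbp. Of 19 clock genes, all tested, 6 rose and 2 fell, against 0.363% and 0.504% of all genes tested, and the median was 0.28. This list, too, was written with earlier results of these data known. The output factor Dbp was at 31.9 and 28.3 CPM in the 1w0Gy samples and 72.2 and 80.5 CPM in the 4m0Gy samples, 2.54-fold higher (log2 fold change 1.34 ± 0.10 SE, adjusted p = 0.00175). Nr1d1 was at 42.5 and 34.9 CPM in the 1w0Gy samples and 83.6 and 107 CPM in the 4m0Gy samples and was 2.46-fold higher (adjusted p = 0.0115). For both genes the mature samples were above the young ones, without overlap.

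The other clock genes that rose were Nr1d2, at 68.3 and 61.4 CPM at 1w0Gy against 106 and 111 CPM at 4m0Gy, and the repressor Bhlhe41, at 10.8 and 9.73 CPM at 1w0Gy against 17.9 and 18.5 CPM at 4m0Gy. Per3, of the period family, was at 31 and 32 CPM at 1w0Gy against 55.6 and 59.9 CPM at 4m0Gy. Tef, an output factor of the Dbp family, was at 36.9 and 38.6 CPM at 1w0Gy against 56.7 and 61.2 CPM at 4m0Gy. Per3 and Tef, unlike the rest, were named after their values were seen. Those that fell were Arntl, at 27.9 and 29 CPM in the 1w0Gy samples and 16.9 and 18.7 CPM in the 4m0Gy samples (log2 fold change −0.67, adjusted p = 0.0226), and the repressor Cry1, at 11.4 and 10.4 CPM in the 1w0Gy samples and 4.59 and 5.16 CPM in the 4m0Gy samples (log2 fold change −1.16, adjusted p = 0.0414). Per1, Per2, Clock, Npas2, Cry2 and Hlf were not called, with log2 fold changes from −0.16 to 0.40. Without 4m0Gy replicate 1 the clock calls were 2 higher and 0 lower, without 4m0Gy replicate 2 they were 2 and 1, without 1w0Gy replicate 1 they were 1 and 0, and without 1w0Gy replicate 2 they were 1 and 0. Only Dbp was called in all 4. The hour at which each gland was taken is not given in the sources used here, and its part in these values was not tested.

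**Figure D3:**
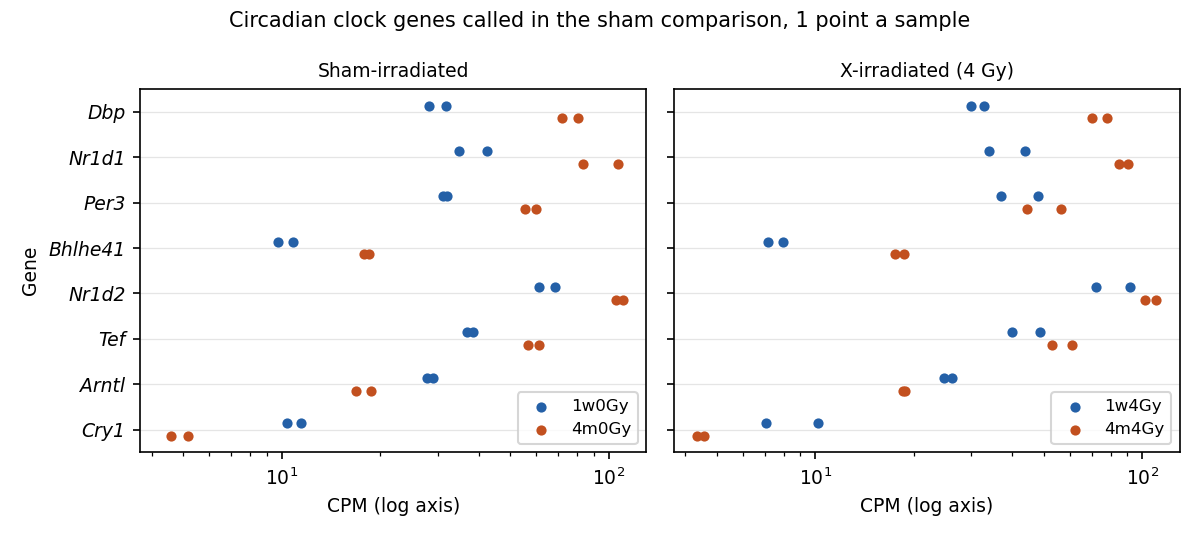
CPM on a log axis of the 8 circadian clock genes called in the sham comparison, 1 point a sample, sham groups on the left and X-irradiated groups on the right. The mature samples (orange) lie to the right of the young ones (blue) for the 6 genes from Dbp to Tef and to the left for Arntl and Cry1 in the sham groups. The genes shown were picked as called, and 50% of all genes tested had sham groups without overlap.

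Promoters of clock genes are shown because the genes moved in opposite directions and some carry known response letters. The windows are those of RefSeq on GRCr8, 250 bases before to 50 bases after the start, 300 bases in all, and were available for 7 of the 8 called clock genes. The E-box letters CACGTG, which read the same on both strands, occurred in 6.4% of 33469 rat promoters, or 7.1% of 27457 genes when a gene counts if any of its windows holds them, and, counted by gene, in 3 of the 6 genes that rose (Tef, Bhlhe41 and Nr1d1). The letters AGGTCA, a binding motif of nuclear receptors such as Nr1d1, searched on both strands, occurred in 16.2% of promoters (16.9% of genes), in Bmal1 and in Nr1d2. Nr1d2 rose while Bmal1 fell, and Dbp and Per3, which rose, held neither motif. The windows of Nr1d2, Dbp and Per3 are not printed, nor is that of the first start of Nr1d1, which had no match. Each match is a description of letters in a window. The capitals mark the match, which began 198 bases before the start in Tef (chr7:115206577-115206876, plus strand), 48 before it in Bhlhe41 (chr4:180569306-180569605, minus strand), 191 before the second annotated start of Nr1d1 (chr10:84229405-84229704, minus strand) and 15 before it in Bmal1 (chr1:176766078-176766377, plus strand):
Tef: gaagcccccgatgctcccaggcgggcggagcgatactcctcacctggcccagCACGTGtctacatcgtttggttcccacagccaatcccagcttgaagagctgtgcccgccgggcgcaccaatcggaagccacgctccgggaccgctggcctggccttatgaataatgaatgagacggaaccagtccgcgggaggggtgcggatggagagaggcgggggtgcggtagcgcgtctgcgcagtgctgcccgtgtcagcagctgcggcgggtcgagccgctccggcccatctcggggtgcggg
Bhlhe41: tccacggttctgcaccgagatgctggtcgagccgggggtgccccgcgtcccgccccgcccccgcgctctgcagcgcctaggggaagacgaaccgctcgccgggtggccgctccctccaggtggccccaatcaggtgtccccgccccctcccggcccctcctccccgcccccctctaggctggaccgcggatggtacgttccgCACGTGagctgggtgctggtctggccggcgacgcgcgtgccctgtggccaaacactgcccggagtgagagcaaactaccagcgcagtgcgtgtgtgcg
Nr1d1: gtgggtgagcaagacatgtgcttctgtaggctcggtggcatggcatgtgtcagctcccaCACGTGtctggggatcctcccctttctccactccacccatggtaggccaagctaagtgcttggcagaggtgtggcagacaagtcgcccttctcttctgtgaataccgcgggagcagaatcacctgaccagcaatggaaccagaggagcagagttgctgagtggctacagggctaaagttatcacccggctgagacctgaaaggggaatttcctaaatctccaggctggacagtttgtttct
Bmal1: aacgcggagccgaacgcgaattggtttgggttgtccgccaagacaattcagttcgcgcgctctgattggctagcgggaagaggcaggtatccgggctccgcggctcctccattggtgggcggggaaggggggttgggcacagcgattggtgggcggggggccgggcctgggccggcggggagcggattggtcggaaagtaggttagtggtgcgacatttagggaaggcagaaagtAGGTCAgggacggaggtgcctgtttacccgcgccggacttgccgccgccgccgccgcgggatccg
Among the 14 collagen and matrix genes that fell and had a promoter in the table, 0 held CACGTG and 1 (Mfap2) held AGGTCA.

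Genes of hormone synthesis were considered as well. Of 18 genes for hormone synthesis tested, 1 fell and 0 rose, against 0.504% and 0.363% of all genes tested. Their median was 0.13 (0.07 to 0.14 with 1 sham sample left out). Tg was at 183300.0 and 202900.0 CPM at 1w0Gy and at 213800.0 and 212700.0 CPM at 4m0Gy (adjusted p = 0.757 by edgeR). Slc5a5, the sodium-iodide symporter, was at 335 and 392 CPM in the 1w0Gy samples and 505 and 525 CPM in the 4m0Gy samples, without overlap, and was not called (log2 fold change 0.50 ± 0.23 SE, adjusted p = 0.336). Slc26a7 and Slc5a8, anion transporters of the follicular cell, had log2 fold changes of 0.40 and 0.38 and were not called by edgeR, though DESeq2's Wald test called both higher. Tshr, the receptor of thyroid-stimulating hormone, was at 287 and 318 CPM in the 1w0Gy samples and 246 and 235 CPM in the 4m0Gy samples (adjusted p = 0.14).

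Dio2, the type 2 deiodinase that turns thyroxine into the active hormone inside cells, was the gene of this set that fell, at 11.1 and 7.99 CPM in the 1w0Gy samples and 2.13 and 3.34 CPM in the 4m0Gy samples (log2 fold change −1.79 ± 0.25 SE, adjusted p = 0.0226). The adjusted p was 0.142 without 4m0Gy replicate 1 and 0.165 without 1w0Gy replicate 1. Dio1, the type 1 deiodinase, which was far more abundant in CPM in this gland, was at 585 and 584 CPM in the 1w0Gy samples and 743 and 734 CPM in the 4m0Gy samples and was not called (log2 fold change 0.34, adjusted p = 0.335 by edgeR). Of 6 thyroid transcription factors tested, all 6 were above 0, with a median of 0.26 (0.42 without 1w0Gy replicate 1 and 0.11 without 1w0Gy replicate 2), and 0 were called by edgeR, 2 having an unadjusted p under 0.05 and 1 being called higher by DESeq2. Hhex, the homeobox factor of the thyroid bud, was at 117 and 166 CPM in the 1w0Gy samples and 248 and 224 CPM in the 4m0Gy samples (adjusted p = 0.123). Pax8 and Nkx2-1, which drive Tg, had log2 fold changes of 0.18 ± 0.13 and 0.14 ± 0.08 SE. Of 24 endoplasmic reticulum chaperones tested, 21 were below 0 with a median of −0.32 (−0.51 to −0.17 with 1 sham sample left out), and 0 were called by edgeR, 12 having an unadjusted p under 0.05 and 2 being called lower by DESeq2.

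Of the 55 named genes that rose, 6 were in one of the gene lists, all of them clock genes, and 49 in none. Aqp1, a water channel, was the most abundant gene that rose in CPM among those named here, at 96.1 and 105 CPM in the 1w0Gy samples and 186 and 188 CPM in the 4m0Gy samples, 1.86-fold higher (adjusted p = 0.0101). Slc6a20, a sodium-coupled carrier of proline and other imino acids, was at 7.18 and 7.06 CPM in the 1w0Gy samples and 27.7 and 19.7 CPM in the 4m0Gy samples and was 3.32-fold higher (adjusted p = 0.0102). Kcnt1, a sodium-activated potassium channel, was at 7.12 and 8.45 CPM in the 1w0Gy samples and 23 and 17.5 CPM in the 4m0Gy samples (log2 fold change 1.38, adjusted p = 0.028). Both mature samples were above both young ones in each case.

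Snph, or syntaphilin, which anchors mitochondria to microtubules in axons, had the second largest log2 fold change of the genes that rose. It was at 7.5 and 10.5 CPM in the 1w0Gy samples and 64.9 and 36.5 CPM in the 4m0Gy samples, 5.62-fold higher (log2 fold change 2.49 ± 0.29 SE, adjusted p = 0.0107), and the 2 mature samples themselves differed. Mapt, which encodes the microtubule protein tau, was at 25.3 and 22 CPM in the 1w0Gy samples and 50.7 and 43.6 CPM in the 4m0Gy samples (log2 fold change 0.99, adjusted p = 0.0106). Dock3, an exchange factor for Rac, was at 3.72 and 4.17 CPM in the 1w0Gy samples and 9.69 and 12 CPM in the 4m0Gy samples, and Pex5l, a trafficking partner of pacemaker channels, at 27.9 and 26.6 CPM in the 1w0Gy samples and 53.9 and 47.5 CPM in the 4m0Gy samples. Zfp536, a zinc finger repressor, had a log2 fold change of 1.77, from 2.23 ± 1.02 to 7.59 ± 0.692 CPM (SD, n = 2). Some of these genes are best known from neurons. Of 13 markers of Schwann cells and nerve tested, 0 were called by edgeR (4 at an unadjusted p under 0.05), 8 were below 0 and the median was −0.20 (−0.28 to −0.04 with 1 sham sample left out).

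The remaining genes named by the rule were regulators and 1 meiotic gene. Rap1gap2, which switches off the GTPase Rap1, was at 20.6 and 22.2 CPM at 1w0Gy against 41 and 38 CPM at 4m0Gy. Crebrf, a regulator of CREB3 in the stress response, was at 52.8 and 49.4 CPM at 1w0Gy against 79.2 and 79.4 CPM at 4m0Gy, and Cklf, a chemokine-like factor, at 4.16 and 4.17 CPM at 1w0Gy against 11.9 and 10.8 CPM at 4m0Gy. Ndrg3 was at 5.88 and 7.18 CPM at 1w0Gy against 17.2 and 14.1 CPM at 4m0Gy. Rad21l1, a cohesin subunit of meiosis, was low, at 0.432 and 1.1 CPM in the 1w0Gy samples and 5.82 and 4.4 CPM in the 4m0Gy samples, and had the largest log2 fold change of the genes that rose, 2.74 ± 0.39 SE (adjusted p = 0.0226). Of the 12 genes that rose with the smallest adjusted p, 4 were called without 4m0Gy replicate 1, 12 without 4m0Gy replicate 2, 1 without 1w0Gy replicate 1 (Dbp) and 5 without 1w0Gy replicate 2. For the 8 with the largest change these counts were 3, 7, 1 and 5.

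Beside the groups above, the genes that fell included Tppp3, a tubulin-polymerizing protein, at 21.3 and 23 CPM in the 1w0Gy samples and 8.27 and 8.45 CPM in the 4m0Gy samples, 2.65-fold lower (adjusted p = 0.00265). Its log2 fold change was −1.46 to −1.34 with 1 sham sample left out. Itm2a, a membrane protein of differentiating cells, was at 49.6 and 51.8 CPM at 1w0Gy against 31.2 and 32.5 CPM at 4m0Gy. Gfra2, the neurturin receptor of autonomic neurons, was at 84.4 and 93.9 CPM at 1w0Gy against 48.1 and 54.8 CPM at 4m0Gy (adjusted p = 0.0106). Cd300le, an immunoglobulin-like receptor of myeloid cells, was at 5.99 and 5.38 CPM at 1w0Gy against 1.55 and 1.99 CPM at 4m0Gy. Of the 12 genes that fell with the smallest adjusted p, 5 were called without 4m0Gy replicate 1, 12 without 4m0Gy replicate 2, 6 without 1w0Gy replicate 1 and 8 without 1w0Gy replicate 2, and for the 8 with the largest change these counts were 4, 6, 4 and 6.

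Lists with no call by edgeR in sham rats are given with the others in the plot of list medians. C cell markers had a median of 0.34 with 14 of 19 above 0 and 0 called, 6 having an unadjusted p under 0.05, but −0.03 without 4m0Gy replicate 2. Gfra4, the persephin receptor of C cells, was at 35.8 and 29.6 CPM in the 1w0Gy samples and 41.5 and 58.2 CPM in the 4m0Gy samples and was not called (adjusted p = 0.122 by edgeR). Oxidative phosphorylation genes were below 0 for 32 of 34, but by little, with a median of −0.09. The median of skeletal muscle markers ran from −1.25 to 0.67 depending on which sham sample was left out, and that of parathyroid markers was 0.22 but −0.035 without 4m0Gy replicate 1 and −0.021 without 1w0Gy replicate 2.

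**Figure D4:**
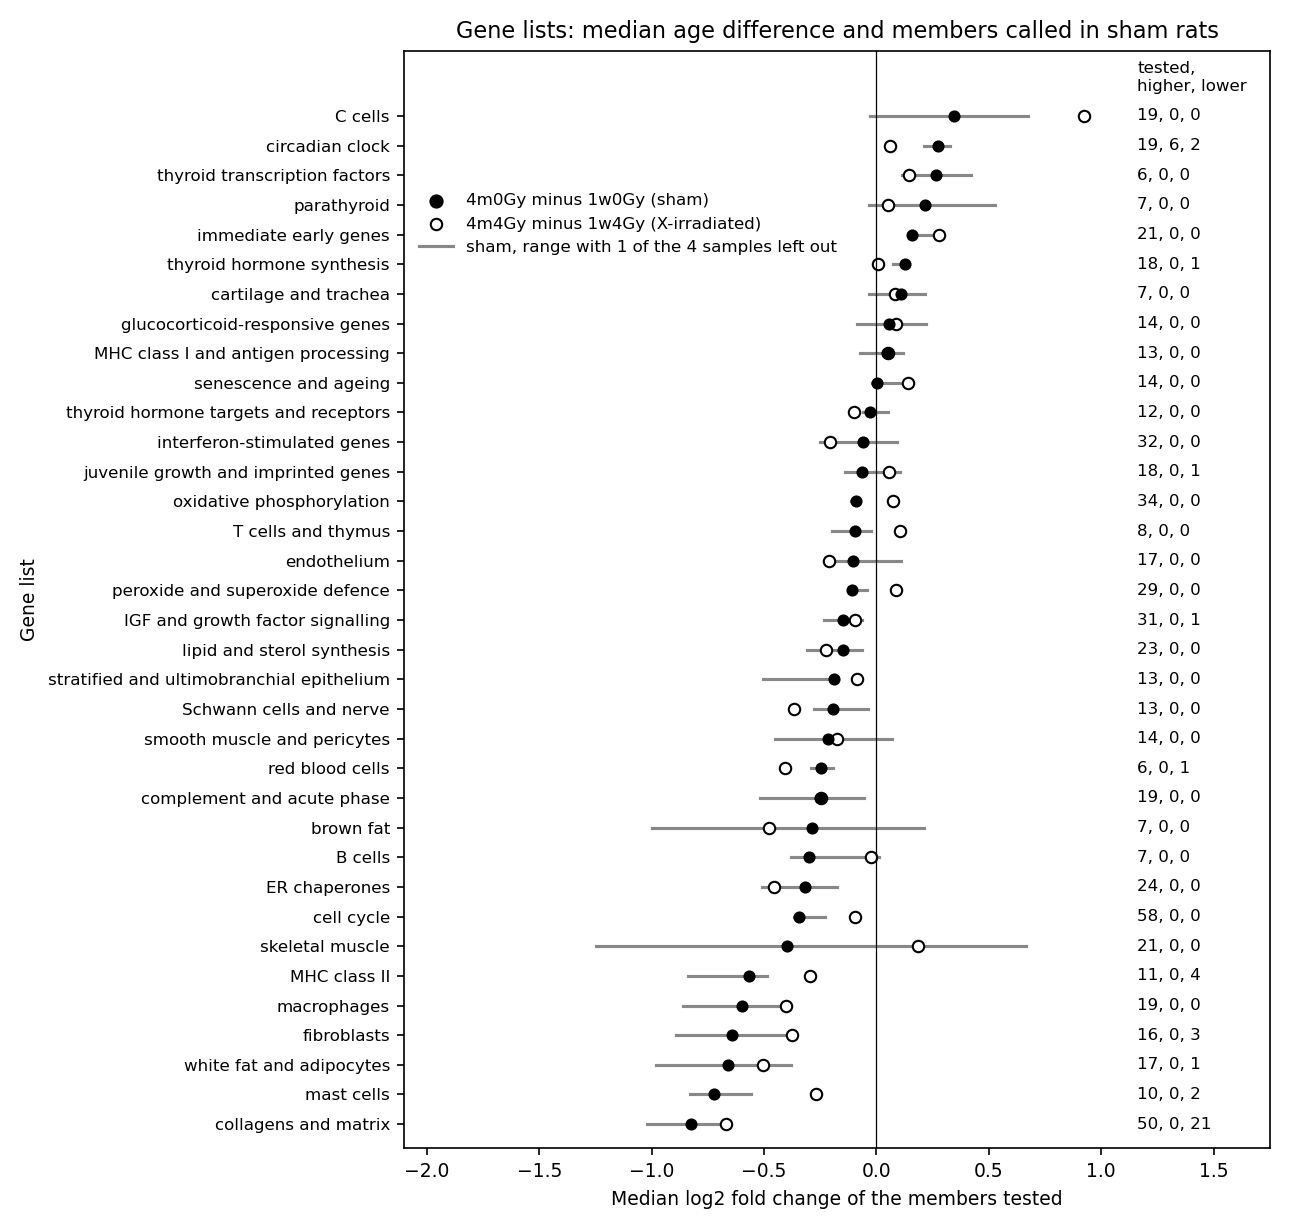
Median log2 fold change with age of the tested members of 35 gene lists, in sham rats (filled) and X-irradiated rats (open), with a grey bar for the range in sham rats when 1 of the 4 samples was left out. The figures on the right are the members tested, called higher and called lower in sham rats. Collagens and matrix (50, 0, 21) have the lowest median and the circadian clock (19, 6, 2) is the list with members called in both directions.

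The X-irradiated rats gave a second comparison of the same ages, 4m4Gy against 1w4Gy, with other animals but with the spread estimated over the same 8 samples. It had 34 genes called higher (0.217% of those tested) and 31 called lower (0.198%), 65 in all (0.414%). Of the genes called in sham rats, 33 were also called there, 11 higher and 22 lower, which was 24.3% of the sham calls and 50.8% of the irradiated ones. The sign was the same for 130 of the 136 genes, 51 of 57 that rose and 79 of 79 that fell, against 59.6% of all genes tested. The irradiated samples did not overlap, in the direction seen in sham rats, for 43 of the 57 and 74 of the 79, against 23.9% of all genes tested with the 4m4Gy samples higher and 23.6% with them lower. The irradiated counts, too, rested on single samples: they were 0 higher and 0 lower without 4m4Gy replicate 1, 1 and 0 without 4m4Gy replicate 2, 32 and 56 without 1w4Gy replicate 1, and 2 and 3 without 1w4Gy replicate 2. The median log2 fold change of these genes was 0.37 and −0.63 in irradiated rats, against 0.81 and −0.99 in sham rats, where the genes had been picked.

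**Figure D5:**
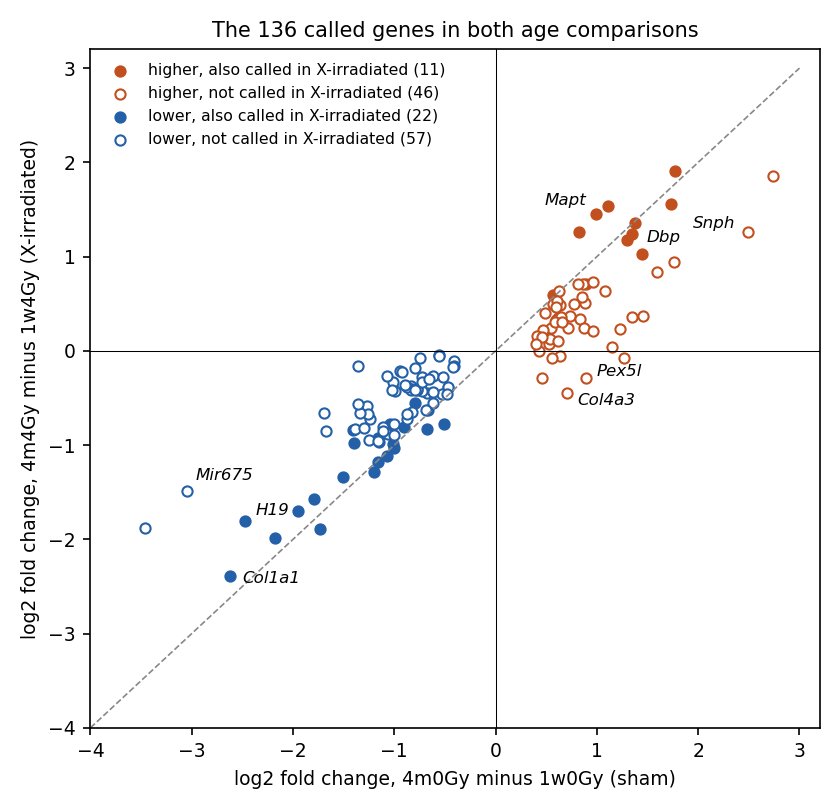
log2 fold change with age of the 136 genes called in sham rats, in sham rats (horizontal) and in X-irradiated rats (vertical), with the line of equal values dashed. Filled points mark the 33 genes called in both comparisons, and 130 of the 136 points have the same sign on both axes.

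Col1a1 was at 554 and 437 CPM in the 1w4Gy samples and 91.9 and 96.7 CPM in the 4m4Gy samples, close to the sham values, with a log2 fold change of −2.39 (adjusted p = 0.00346). Dbp was at 32.8 and 29.9 CPM in the 1w4Gy samples and 70.2 and 78.1 CPM in the 4m4Gy samples, with a log2 fold change of 1.24 (adjusted p = 0.00346). H19 was at 7.4 and 7.54 CPM in the 1w4Gy samples and 2.06 and 2.2 CPM in the 4m4Gy samples, with a log2 fold change of −1.81 against −2.47 in sham rats (adjusted p = 0.0103). Among lists, 13 of the 50 collagen and matrix genes fell in irradiated rats and the median was −0.67. Of the 19 clock genes 3 rose there (Dbp, Nr1d1 and Bhlhe41) and 0 fell, with a median of 0.06. No class II gene was called by edgeR there (median −0.29), and 3 of 19 C cell markers rose (median 0.92). Over all genes tested, 0.217% rose and 0.198% fell in that comparison. Samples within an irradiated group differed more than those within a sham group, the same ratio being 15 (1w4Gy) and 17.3 (4m4Gy) where it was 8.75 and 8.45, and the summed parathyroid markers were at 359 and 5484 CPM in the 4m4Gy samples.

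The difference between the age effects, tested as an interaction of age and irradiation, was called for 0 of the 15684 genes (0%) by edgeR's quasi-likelihood test, where the smallest adjusted p was 0.269 and 1430 genes were under 0.05 without adjustment. Another tool, DESeq2, called 26 genes by its Wald test, and edgeR without a filter on low counts 2. Of the 136 sham calls, 58 had an unadjusted interaction p under 0.05, against 1430 of all 15684 genes. The 136 were picked by their sham difference, which is part of the interaction. Their count is raised by that choice and cannot show that irradiation changed the age difference. The 6 with opposite signs were Col4a3, Pex5l, Crebrf, Ndrg3, Tanc1 and Dusp16, all genes that rose in sham rats. Col4a3 was at 33.2 and 36.4 CPM in the 1w4Gy samples and 26.8 and 24.3 CPM in the 4m4Gy samples and Pex5l at 40.8 and 42.9 CPM in the 1w4Gy samples and 30.5 and 37.8 CPM in the 4m4Gy samples, with log2 fold changes of −0.45 and −0.29 that were not called there (adjusted p = 0.0856 and 0.242 by edgeR). Their adjusted interaction p was 0.269 and 0.31, so a difference between the age effects was not shown for either.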

How the data were processed

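Thyroid total RNA of 8 male Wistar rats was sequenced from directional libraries as paired reads. According to the submitters' processing notes, HISAT2 (2.2.1) and featureCounts (2.0.0) were used, and the strand setting and genome build are not given in the sources used here. The table deposited by the authors holds raw counts per transcript (54991 transcripts of 30560 gene identifiers), with RPKM and TPM values that the authors derived from them. The deposited counts were analysed, the deposited TPM values served for 1 alternative on the log2(TPM + 1) scale, and the RPKM values were not used.

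Each gene was represented by the transcript with the highest summed count. Genes were filtered with filterByExpr, scaled by the trimmed mean of M values and fitted with edgeR (4.0.16, R 4.3.3) by the quasi-likelihood method with 1 mean for each of the 4 groups, so that the spread was estimated over all 8 samples. P-values were two-sided and adjusted by the Benjamini-Hochberg method over all genes tested. The SE of a log2 fold change is its absolute value divided by the square root of the test's F statistic. It therefore restates the test and is not a separate measure of the spread between replicates. CPM values, means and SD come from the same scaling, and counting depth is given with the results. The steps were tested on simulated data. Alternatives included DESeq2 (1.42.0), a fit on only the 4 samples compared, other scalings and filters, and other transcript choices. A replicate block, removal of the trend with transcript length and leaving out each sample were also run.

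Genes could be named if they were among the 12 with the smallest adjusted p or the 8 with the largest change in a direction (at 5 CPM or more), among the first 4 called members of a list in a direction, among the 2 most abundant of a list without calls, or in the lists for hormone synthesis, thyroid transcription factors and juvenile growth. Not all of these were named, Tpx2 and Pcna of the cell cycle list being left out. Genes outside these sets were named after their values were seen. The samples, gene lists and rules were chosen with earlier results of these data known, so that no list is independent evidence. RefSeq tables (GRCr8) gave promoters, miRNA sequences and gene order, and all 127 called genes with a name were matched to them. No coordinates of genes other than those of the sequences printed were used.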

Additional observations from a re-analysis of the deposited data

How the results depend on the processing

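Counts of calls moved with the method. Lox, Loxl1, P4ha1, P4ha3, Plod2 and Bmp1 were not followed gene by gene through the alternatives. The log2 fold changes of the other genes named kept their sign in every alternative run, except for Igf2 and Pth with 1 sham sample left out. That of Igf2 ran over −0.29 to 0.49 and was below 0 without 4m0Gy replicate 2. For Pth it ran over −0.035 to 0.51 and was below 0 without 4m0Gy replicate 1 and without 1w0Gy replicate 2. Neither gene was called. In sham rats, DESeq2's Wald test called 137 genes higher and 199 lower, no filter on low counts 127 and 176, and the sum over a gene's transcripts 33 and 46, against 57 and 79. Fold limits of 1.5 and 0.5 left 38 genes lower. Leaving out 1 sample gave 2 to 27 higher and 6 to 83 lower. In X-irradiated rats, against 34 and 31, DESeq2 called 193 and 212, no filter 203 and 181, upper quartile scaling 18 and 16, summed transcripts 16 and 18, removal of the length trend 18 and 13, the fold limits 16 lower, and leaving out 1 sample 0 to 32 higher and 0 to 56 lower. The interaction had 26 calls by DESeq2, 2 without a filter and 0 to 0 with 1 sample left out. The cause of these differences was not tested. Whether the replicate numbers of the labels pair samples by origin is not given in the sources used here. Deviations from the group means of same-numbered samples correlated at −0.24 between the sham groups and at 0.028 to 0.21 between the other groups, and with the replicate number as a block 73 genes were called higher and 92 lower in sham rats, 52 and 72 of them shared with the fit without it, 43 and 46 in X-irradiated rats, and 0 for the interaction.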
